A study of Mus musculus with 12 samples.

Results

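The histone marks of 10 genes of the myostatin and TGF-beta pathway were compared between C2C12 myoblasts and the myotubes made from them. The genes were chosen by name, for their place in the pathway, and are 10 of the 22342 protein-coding genes measured: the ligand genes Mstn, Inhba, Tgfb1, Tgfb2 and Tgfb3, the antagonist gene Fst, the receptor genes Acvr2a and Acvr2b, and the Smad genes Smad3 and Smad7. The series holds 12 ChIP-seq libraries, 1 for each of 6 histone marks (H3K4me3, H3K4me2, H3K4me1, H3K27ac, H3K27me3 and H3K36me3) in each cell type. C2C12 is a mouse muscle cell line of the C3H strain that divides as single-nucleated myoblasts and fuses into multinucleated myotubes when serum is withdrawn. The myoblasts were near confluent in 10% serum, and the myotubes were about 5 days into differentiation and had been freed of unfused cells by light trypsin treatment. Both were labelled passage 15 to 18, and neither carried a genetic change or another treatment. As all cells come from a single line, the values describe that line. Earlier results of these data were known when the 10 genes and the lists used below were chosen.

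Myostatin, activins and the TGF-betas are secreted dimers of related build. Myostatin and the activins bind the type II receptors ACVR2A and ACVR2B, the TGF-betas bind TGFBR2, and the type I receptors recruited next phosphorylate SMAD2 and SMAD3, which enter the nucleus with SMAD4. Myostatin is known in muscle as a brake on growth: animals that lack it are heavily muscled. Follistatin, the product of Fst, binds and neutralises myostatin and activins, and SMAD7 is an inhibitory Smad that blocks the type I receptors. Of the marks, H3K4me3 and H3K27ac are found at active promoters, H3K4me1 with H3K27ac at active enhancers, H3K36me3 along transcribed gene bodies and H3K27me3 over genes silenced by Polycomb.

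Libraries held 1858771 to 7033100 reads of 34 bp, so that a mean promoter window held 1.45 to 5.50 reads. Promoter counts are reads within 1 kb of the transcription start site (TSS), and fold enrichment is this count over the mean of the same library. A promoter was called marked when the lower bound of its 95% Poisson interval lay above that mean. The ratio of myotubes to myoblasts was scaled by total reads after 1 read was added to each count, and a gene was called higher or lower in myotubes at a ratio of at least 2 or at most 0.5 if the 2 libraries together had at least 20 reads. There was 1 library per mark and cell type and no input library was used here, so nothing has a replicate, no test was run, every interval covers counting error only, and a ratio compares 2 libraries and not the conditions. The markers of myotubes and of dividing cells went with the labels of the libraries, whereas those of myoblasts hardly separated them. All 9 muscle genes listed as markers (Myog, Ckm, Myh3, Tnnt3, Tnni2, Actc1, Tmem8c, Casq2 and Myom1) had higher H3K4me3 and H3K27ac in myotubes, with 44 H3K4me3 reads summed over them in myoblasts and 929 in myotubes. All 4 genes of dividing cells (Ccnb1, Cdk1, Top2a and Mki67) had lower values of both marks in myotubes, with 328 and 130 H3K4me3 reads. The 5 myoblast genes (Myod1, Myf5, Pax7, Des and Cdh15) summed to 21.9-fold H3K4me3 in myoblasts and 21.6-fold in myotubes. Their H3K27ac summed to 50.9-fold and 43.6-fold. In each mark 1 of them was called lower (Pax7 for H3K4me3, Myf5 for H3K27ac) and none higher. Of the fibroblast markers, Col1a1, Col3a1 and Pdgfra had lower H3K27ac, as had 41.5% of all promoters tested. Thy1 held 2 and 5 reads, and the 4 summed to 11.7-fold H3K27ac enrichment in myoblasts and 3.38-fold in myotubes. For H3K4me3 only Col3a1 was called lower (78 and 17 reads, 0.192), and Pdgfra held 28 and 41 reads (1.22, 0.743 to 2.07). Of the markers of other cell types, the leukocyte genes Ptprc and Itgam, the endothelial genes Pecam1 and Cdh5, the adipocyte genes Fabp4 and Adipoq and the neuron genes Snap25 and Rbfox3 held 0 to 6 H3K4me3 reads in each library. Their lists also hold Cd68 (12 and 4 H3K4me3 reads, 18 and 55 H3K27ac reads), Kdr (16 and 6, 8 and 2), Pparg (53 and 36, 59 and 96) and Tubb3 (43 and 18, 24 and 17), each marked in myoblasts by both marks. Summed over each list, H3K4me3 was 2.00-fold in myoblasts and 0.905-fold in myotubes for leukocytes, 3.23-fold and 1.55-fold for endothelium, 9.07-fold and 5.04-fold for adipocytes and 7.38-fold and 2.46-fold for neurons. In such bulk samples fewer cells with a mark and less of the mark per cell cannot be told apart, and the part of dividing, unfused or other cells in the values below was not tested.

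9 of the 10 genes, all but Mstn, had H3K4me3, H3K4me2 and H3K27ac at their promoters in both cell types. Among all protein-coding promoters, 54.1% were marked by H3K4me3 in myoblasts and 53.8% in myotubes, 61.4% and 58.6% by H3K4me2, and 51.2% and 50.2% by H3K27ac. H3K4me1 marked 7 of the 10 promoters in each cell type, against 48.4% and 47.1% of all promoters, and the other 3 were Mstn, Fst and Acvr2a. H3K27me3 marked only Acvr2b, and only in myoblasts, where 18.2% of all promoters were marked and 12.7% in myotubes. The 9 promoters varied among themselves by several fold: H3K4me3 in myoblasts ran from 12.4-fold at Acvr2b to 47.0-fold at Smad7, and in myotubes from 9.69-fold at Acvr2b to 52.3-fold at Fst. H3K27ac ran from 4.13-fold at Acvr2b to 55.0-fold at Inhba in myoblasts, and from 5.14-fold at Tgfb1 to 60.1-fold at Tgfb3 in myotubes.

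**Figure D1:**
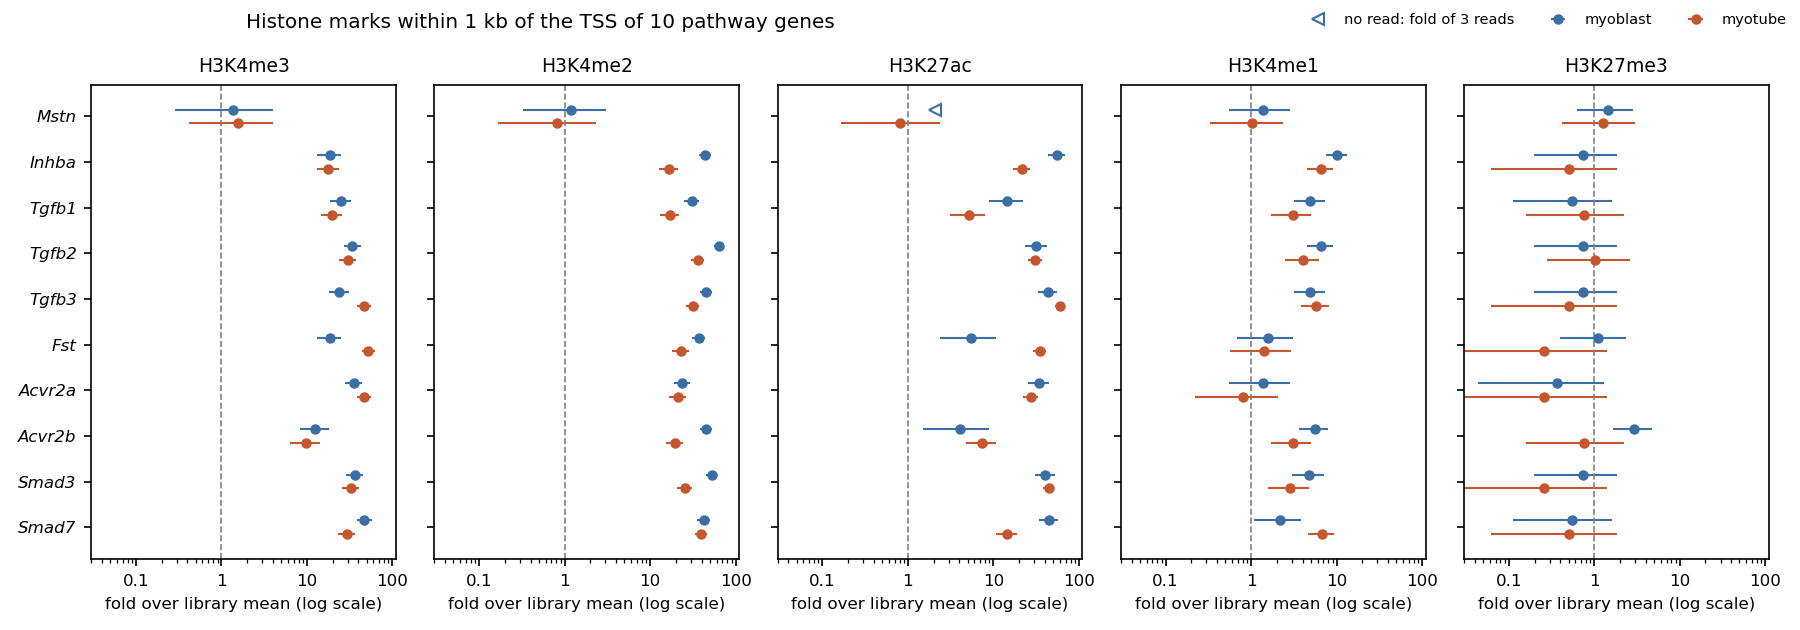
Fold enrichment over the library mean (x axis, log scale) within 1 kb of the TSS of each of the 10 genes, 1 panel per mark, with points for the myoblast and myotube libraries and bars for 95% Poisson intervals (cut at the left edge where they run past it). Mstn lies near the library mean in every panel, Fst stands apart in H3K4me3 and H3K27ac between the cell types, and Acvr2b is the gene with myoblast H3K27me3 above the mean; the open triangle is the fold of 3 reads where there was no read.

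Fst encodes follistatin, the secreted antagonist of myostatin and activin, and had the largest ratios of H3K4me3, H3K27ac and H3K36me3 among the 10 genes. Its promoter on chr13 held 40 H3K4me3 reads in myoblasts and 135 in myotubes, 18.4-fold (13.2 to 25.1) and 52.3-fold (43.9 to 62.0) over the mean, a ratio of 2.79 (1.98 to 4.15). Its H3K27ac count was 8 reads in myoblasts and 129 in myotubes, a ratio of 5.68 (3.12 to 15.0). The 2 cell types did not overlap in either mark within their counting intervals, and the H3K27ac ratio was above that of 98.6% of the promoters tested. H3K4me2 went the other way with the bulk of promoters, with 125 and 85 reads and a ratio of 0.616 (0.460 to 0.815), close to the median of 0.593 over all promoters. H3K27me3 was near or under the mean, with 6 reads in myoblasts and 1 in myotubes, and H3K4me1 held 8 and 7 reads.

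The body of Fst, from 1 kb inside the TSS to the end of the annotated gene at chr13:115242470-115249159 (mm9, minus strand), went from unmarked to marked for H3K36me3, H3K4me3, H3K27ac and H3K4me1. H3K36me3, the mark of transcribed bodies, counted 9 reads in myoblasts, 0.599-fold (0.274 to 1.14), and 62 in myotubes, 6.73-fold (5.16 to 8.62), a ratio of 10.3 (5.55 to 25.7) that exceeded the ratio of 99.8% of the gene bodies tested. H3K4me3 spread into the body, with 7 reads in myoblasts and 104 in myotubes, a ratio of 11.0 (5.85 to 31.9). The deposited H3K4me3 peaks also reached further into the body in myotubes. In myoblasts a peak of 1607 bp lay over the TSS (chr13:115247539-115249145) and one of 1588 bp upstream of it (chr13:115249252-115250839). In myotubes there was a single peak of 4541 bp (chr13:115245770-115250310), which did not reach further upstream. Body H3K27ac was 3 and 55 reads (ratio 5.51, 2.34 to 36.04), body H3K4me1 12 and 51 reads (4.13, 2.31 to 9.04) and body H3K4me2 28 and 74 reads (2.33, 1.53 to 3.83). No other protein-coding gene overlaps Fst in the annotation, and genes of other types were not checked.

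**Figure D2:**
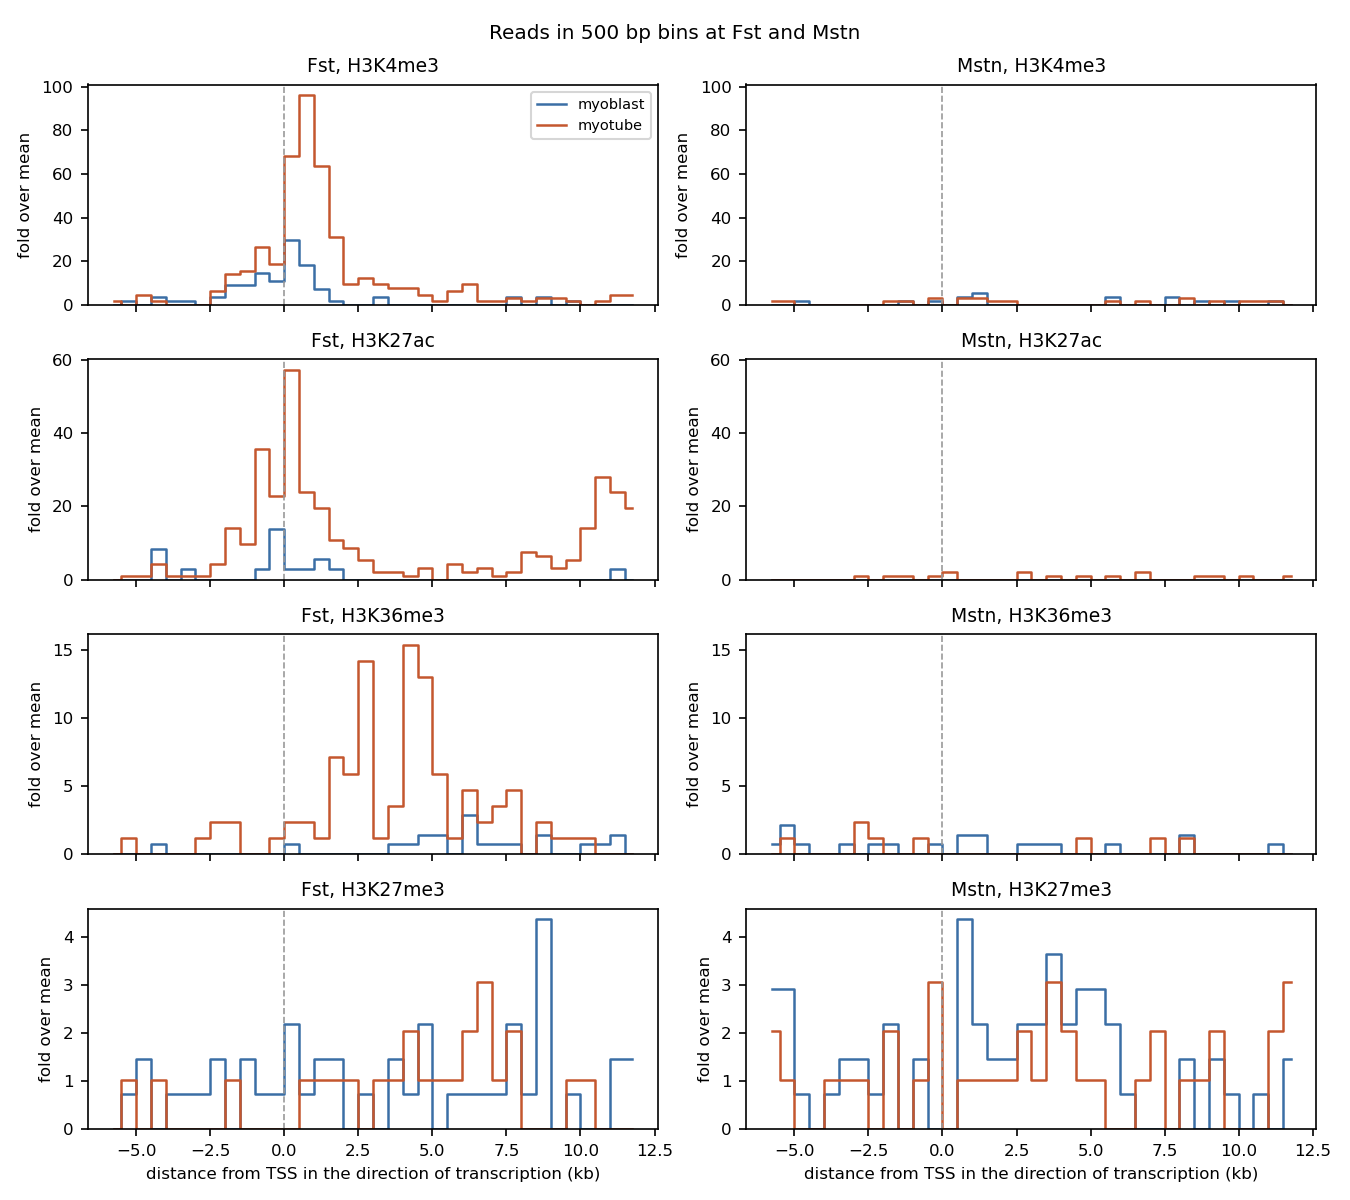
Fold over the library mean (y axis) in 500 bp bins by distance from the TSS (x axis, kb, direction of transcription) at Fst (left) and Mstn (right), with the same y scale for both genes in a row, for H3K4me3, H3K27ac, H3K36me3 and H3K27me3. At Fst the myotube line stands above the myoblast line for the first 3 marks, with H3K27ac again high about 10.9 kb downstream, while at Mstn both lines stay low.

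A second site of H3K27ac lay beyond the 3' end of Fst. Myotube H3K27ac peaks were deposited at 10.0, 10.9 and 11.9 kb downstream of the TSS, and they held 0, 1 and 1 H3K27ac reads in myoblasts and 10, 51 and 34 in myotubes. These peaks were singled out after their values were seen and through their myotube signal, so their excess in myotubes is part of the choice and is given as a description. In myotubes the H3K27ac of the 3 peaks was 16.2-fold, 26.0-fold and 19.9-fold over the mean. They held no H3K4me1 peak region as defined below, though they counted 0, 7 and 6 H3K4me1 reads in myoblasts and 4, 14 and 13 in myotubes.

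Mstn encodes myostatin, and was the only gene of the 10 without an active mark in either cell type. The gene lies at chr1:53118507-53124923 on the plus strand, and the promoter at its start held 3 H3K4me3 reads in myoblasts and 4 in myotubes, 1.38-fold (0.285 to 4.04) and 1.55-fold (0.423 to 3.97). It held no H3K27ac read in myoblasts, which at this depth allows up to 2.06-fold from a limit of 3 reads, and 3 in myotubes, so no ratio is given. H3K4me2 counted 4 and 3 reads, and H3K4me1 7 and 5. The intervals of every mark at the promoter included the library mean, so a low level of a mark was not detectable at this depth. H3K36me3 over the body was below the mean, with 6 reads in myoblasts (0.403-fold, 0.148 to 0.877) and 1 in myotubes (0.110-fold, 0.00277 to 0.610).

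The wider Mstn locus was as bare. Over the gene with 20 kb on each side, 46417 bp in all, no library had a deposited peak, and the marks of active chromatin ran from 0.0296-fold for H3K27ac in myoblasts to 0.769-fold for H3K4me3 in myotubes. Only H3K27me3 was above the mean there, with 180 reads in myoblasts (1.41-fold, 1.21 to 1.64) and 114 in myotubes (1.25-fold, 1.03 to 1.51). Over the gene body alone H3K27me3 counted 33 reads in myoblasts, 2.22-fold (1.53 to 3.12), and 13 in myotubes, 1.22-fold (0.652 to 2.09). The ratio of 0.576 (0.266 to 1.08) did not pass the call and its interval included 1.

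The sequences before the TSS of these genes differ in composition, and those of Mstn, Tgfb3 and Fst are shown because they lie at the promoter without marks, at a promoter with high H3K27ac in both cell types and at the promoter with the largest ratio. Each is the 250 bases upstream of the most upstream annotated TSS in mm9, 5′ to 3′ on the strand of the gene, read from the NCBIM37 genome, and overlaps no annotated exon. They lie at chr1:53118257-53118506 on the plus strand, at chr12:87419992-87420241 and at chr13:115249160-115249409 on the minus strand. Capitals mark E-boxes (CANNTG on either strand), the element bound by myogenic helix-loop-helix factors such as MYOD1 and MYOG.
Mstn promoter: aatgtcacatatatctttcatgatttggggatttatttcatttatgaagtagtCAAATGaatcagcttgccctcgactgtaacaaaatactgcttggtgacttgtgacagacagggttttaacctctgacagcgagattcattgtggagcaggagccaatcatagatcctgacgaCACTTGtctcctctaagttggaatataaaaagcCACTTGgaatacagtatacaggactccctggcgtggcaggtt
Tgfb3 promoter: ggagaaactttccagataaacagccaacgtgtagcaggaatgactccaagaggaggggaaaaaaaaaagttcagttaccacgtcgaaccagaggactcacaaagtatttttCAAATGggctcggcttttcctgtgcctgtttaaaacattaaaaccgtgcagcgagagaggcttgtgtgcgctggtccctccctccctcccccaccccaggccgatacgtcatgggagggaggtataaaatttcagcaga
Fst promoter: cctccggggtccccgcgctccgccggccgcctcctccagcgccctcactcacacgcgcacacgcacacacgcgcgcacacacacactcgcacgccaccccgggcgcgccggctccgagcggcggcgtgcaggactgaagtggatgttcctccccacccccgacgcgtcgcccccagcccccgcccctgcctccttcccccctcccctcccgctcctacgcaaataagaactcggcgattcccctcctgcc
The Mstn sequence has 41.6% G and C, above only 14.6% of all promoters, and 4 CpG dinucleotides, whereas that of Fst has 74.0% G and C, above 94.3% of promoters, and 32 CpG. Mstn holds 3 E-boxes, Tgfb3 1 and Fst none, and 63.4% of the 22337 promoters compared hold at least 1. The myogenic core CAGCTG, which is 1 form of the E-box, is in none of the 9 promoters read (11.7% of all), Smad7 not being analysed here by sequence. A TATAAA box is in 4 of the 9 (Mstn, Inhba, Tgfb2 and Tgfb3; 12.3% of all), and the Smad-binding CAGAC in 3 of the 9 (Mstn, Tgfb2 and Acvr2a; 40.9% of all). Such matches on either strand describe the letters in this window and not binding.

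The other ligand genes differed from each other in direction. Tgfb3, for TGF-beta 3, had 52 H3K4me3 reads in myoblasts and 120 in myotubes at its promoter on chr12 (ratio 1.92, 1.39 to 2.74), just inside the limit of 2, and 63 and 222 H3K27ac reads (1.37, 1.04 to 1.86). Its H3K4me3 spread into the body as at Fst, with 85 and 312 reads, a ratio of 3.06 (2.42 to 3.97), and the H3K4me3 peak widened from 4192 to 5952 bp. Body H3K36me3 was 454 and 433 reads (1.56, 1.36 to 1.78), and body H3K27me3 was 38 and 68 reads (2.48, 1.66 to 3.83), from 0.650-fold to 1.63-fold. H3K4me2 was lower in myotubes beyond counting error but within 2-fold, with 150 and 117 reads at the promoter (0.705, 0.548 to 0.903) and 322 and 299 over the body (0.838, 0.714 to 0.984). The marks of Tgfb3 thus differed in direction among themselves.

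Inhba, which encodes the subunit of activin A, had lower H3K27ac and H3K4me2 in myotubes and much the same H3K4me3. Its promoter on chr13 held 80 H3K27ac reads in each library, and as the myotube library was deeper these are 55.0-fold (43.6 to 68.5) and 21.6-fold (17.2 to 26.9), a ratio of 0.393 (0.285 to 0.543). H3K4me2 was 148 and 62 reads (0.382, 0.276 to 0.512) and body H3K27ac 68 and 74 reads (0.428, 0.304 to 0.604). H3K4me3 stayed within its counting error at 40 and 46 reads (0.964, 0.619 to 1.52), as did body H3K36me3 at 81 and 59 reads (1.19, 0.835 to 1.68).

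Tgfb1, for TGF-beta 1, had lower H3K27ac in myotubes at its promoter but not over its body. The promoter held 21 and 19 reads, 14.4-fold (8.94 to 22.1) and 5.14-fold (3.09 to 8.03), a ratio of 0.358 (0.181 to 0.695). Its H3K4me3 counted 54 and 51 reads (0.795, 0.531 to 1.19). Body H3K27ac of Tgfb1 was 31 and 81 reads (1.01, 0.672 to 1.61), within counting error. The body kept H3K36me3, 4.56-fold in myoblasts and 6.74-fold in myotubes (1.48, 1.21 to 1.80). Tgfb2, for TGF-beta 2, showed no call at its promoter or over its body. Its promoter on chr1 held 74 and 77 H3K4me3 reads (0.875, 0.628 to 1.22) and 46 and 115 H3K27ac reads (0.971, 0.693 to 1.42). Body H3K27ac of Tgfb2 was 83 and 394 reads (1.85, 1.47 to 2.40), an excess in myotubes beyond counting error but within 2-fold.

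The type II receptor genes carried the marks to different extents. Acvr2a had 77 and 121 H3K4me3 reads (1.32, 0.985 to 1.78) and 50 and 101 H3K27ac reads (0.787, 0.561 to 1.14) at its promoter on chr2, both within counting error. Over its body, in a gene of 89161 bp that the gene Orc4 overlaps, H3K4me1 was 157 and 342 reads (2.24, 1.86 to 2.73) and H3K4me2 104 and 273 reads (2.36, 1.88 to 3.00), from under the mean to 1.58-fold and 1.67-fold. Its body H3K36me3 was 365 and 193 reads (0.864, 0.720 to 1.03).

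Acvr2b had less promoter H3K4me3 and H3K27ac than Acvr2a in both cell types but more H3K4me1, 5.53-fold against 1.38-fold in myoblasts, and in myoblasts more H3K4me2, 45.0-fold against 23.8-fold. It was the gene of the 10 with H3K27me3 at its promoter in myoblasts: 16 reads, 2.91-fold (1.67 to 4.73). In myotubes 3 reads remained, 0.765-fold (0.158 to 2.24), and the ratio of 0.329 (0.0490 to 0.917) excluded 1, but with 19 reads in all it missed the minimum of 20 and was not tested. Its promoter H3K4me3 was 27 and 25 reads (0.781, 0.434 to 1.39) and its H3K27ac 6 and 27 reads (1.57, 0.716 to 5.24). Its body stood apart from this, with 73 and 140 H3K36me3 reads, from 0.885-fold (0.694 to 1.11) to 2.77-fold (2.33 to 3.27), a ratio of 3.11 (2.34 to 4.21) above that of 97.7% of bodies. Body H3K27ac was 23 and 137 reads (2.26, 1.499 to 3.82).

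Smad3, the gene for the signal-carrying Smad, had a body rich in enhancer marks in both cell types. Over 111228 bp of annotated gene its body counted 3539 H3K4me1 reads in myoblasts and 3063 in myotubes, 12.7-fold and 11.3-fold over the mean (ratio 0.894, 0.851 to 0.938). Body H3K27ac counted 961 reads in myoblasts and 2830 in myotubes, 11.998-fold (11.3 to 12.8) and 13.9-fold (13.4 to 14.4), a ratio of 1.16 (1.08 to 1.25). In myoblasts the body of Smad7 was as rich, with 12.7-fold H3K4me1 and 15.3-fold H3K27ac. Body H3K36me3 was 4.21-fold and 7.34-fold (1.74, 1.62 to 1.88), and body H3K4me3 231 and 537 reads (1.95, 1.67 to 2.29). Its promoter on chr9 hardly differed, with 79 and 84 H3K4me3 reads (0.894, 0.650 to 1.23) and 59 and 164 H3K27ac reads (1.08, 0.807 to 1.499).

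Smad7, the gene for the inhibitory Smad, was lower in myotubes for every active mark of its body but H3K36me3, beyond counting error. Body H3K4me2 was 864 and 383 reads, 20.6-fold and 8.25-fold (0.401, 0.354 to 0.452), body H3K27ac 277 and 238 reads, 15.3-fold and 5.16-fold (0.338, 0.283 to 0.403), and body H3K4me3 166 and 96 reads (0.489, 0.374 to 0.629). H3K4me1 over the body was 802 and 486 reads (0.626, 0.558 to 0.701). H3K36me3, in contrast, was 273 and 153 reads, 3.98-fold and 3.64-fold (0.917, 0.745 to 1.12), within counting error.

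The promoter of Smad7 on chr18 behaved differently at its 4 annotated start sites. At the start site with the most H3K4me3, H3K27ac was 65 and 53 reads (0.322, 0.219 to 0.468), H3K4me3 102 and 76 reads (0.629, 0.459 to 0.852) and H3K4me1 11 and 33 reads (2.93, 1.53 to 6.79). At the most upstream site, 2447 bp away, H3K27ac was 77 and 217 reads, 53.0-fold and 58.7-fold, and the ratio was 1.10 (0.851 to 1.46). The lower H3K27ac was thus found downstream and not at the upstream end, and which site is used cannot be read from these marks.

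Across the promoters, calls between the cell types were few and have to be read against all genes. For H3K4me3, 1 of the 9 members tested was called higher and none lower, where 3.46% of all promoters were higher and 7.74% lower. For H3K27ac, 1 was higher (Fst) and 3 lower (Inhba, Tgfb1 and Smad7), where 5.22% were higher and 41.5% lower. For H3K4me2, none was higher and 3 of 9 were lower (Inhba, Acvr2b and Smad3), where 2.33% were higher and 36.2% lower. For H3K4me1, 1 of 7 was higher (Smad7) and none lower, where 8.79% were higher and 18.7% lower. No member had 20 H3K27me3 reads at its promoter, where 2.36% of the promoters tested were higher and 20.4% lower. The shares called lower for H3K27ac and H3K4me2 are close to those of all promoters, while the high ratios of Fst lie among the few.

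The median ratio over all promoters tested was 0.570 for H3K27ac and 0.593 for H3K4me2, whereas over gene bodies it was 0.934 and 1.18, and at distal regions 1.04 for H3K27ac. At the promoters where both lists held an H3K4me3 peak, the log2 ratio had a median of -0.84 for H3K27ac, -0.68 for H3K4me2, -0.44 for H3K27me3, -0.21 for H3K4me3 and -0.05 for H3K4me1. Relative to this median, 6 gene and mark pairs of these 5 marks at promoters were higher and 0 lower, in place of 3 and 6. H3K36me3 is not among these pairs. At promoters 1 member reached 20 reads of it, Tgfb1, with 10 and 18 reads and a ratio of 2.82 (1.28 to 7.12) that was called higher, as were 9.29% of the promoters tested for this mark. The H3K27ac ratio of Fst was then 10.2, that of Acvr2b 2.81 and that of Tgfb3 2.45, and the H3K4me3 ratios of Fst and Tgfb3 were 3.22 and 2.22. On this scale the H3K27ac ratios of Inhba (0.704), Tgfb1 (0.640) and Smad7 (0.576) no longer passed the limit, and those of Tgfb2 (1.74), Acvr2a (1.41) and Smad3 (1.94) were above 1. Which scaling is right cannot be told from the reads.

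**Figure D3:**
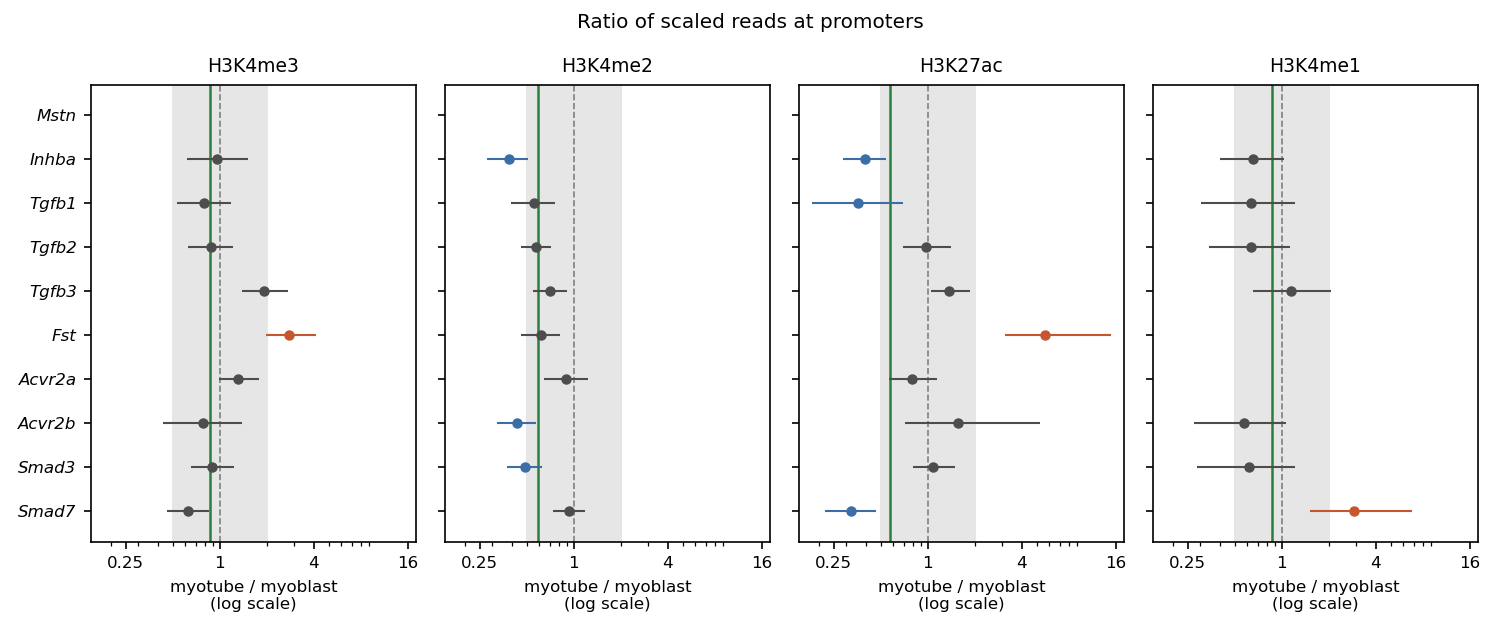
Ratio of scaled promoter reads in myotubes to myoblasts (x axis, log scale) for each gene that reached 20 reads, with 95% intervals for counting error, the 2-fold limits in grey, the ratio of 1 dashed and the median of all promoters tested in green. Fst lies to the right in H3K4me3 and H3K27ac, while Inhba, Tgfb1 and Smad7 lie to the left in H3K27ac, near the median of 0.570.

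Over gene bodies more pairs were called higher than lower, 11 against 4. H3K36me3 was higher over 2 of 9 bodies tested (Fst and Acvr2b), where 7.81% of all bodies were higher and 6.75% lower, and its body level was above the mean for 7 of the 10 genes in myoblasts and 9 in myotubes, where 54.5% and 54.9% of all bodies were. The 2 genes added in myotubes were the same Fst and Acvr2b. H3K4me3 was higher over 2 of 9 (Fst and Tgfb3) and lower over 1 (Smad7), with 6.12% and 4.53% of all bodies. H3K27ac was higher over 2 of 9 (Fst and Acvr2b) and lower over 2 (Inhba and Smad7), with 11.9% and 13.1%. For H3K4me2, 2 of 10 were higher (Fst and Acvr2a) and 1 lower (Smad7), with 21.8% and 11.1% of all bodies. For H3K4me1, 2 of 9 were higher (Fst and Acvr2a) and none lower, with 11.8% and 10.3%. For H3K27me3, 1 of 10 was higher (Tgfb3) and none lower, with 10.4% and 0.946%. Fst took 5 of the 11 higher calls, and Smad7 3 of the 4 lower ones. The median ratio of H3K36me3 over the members was 1.48, beside 1.02 over all bodies tested, and that of H3K4me3 1.65 beside 0.987.

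**Figure D4:**
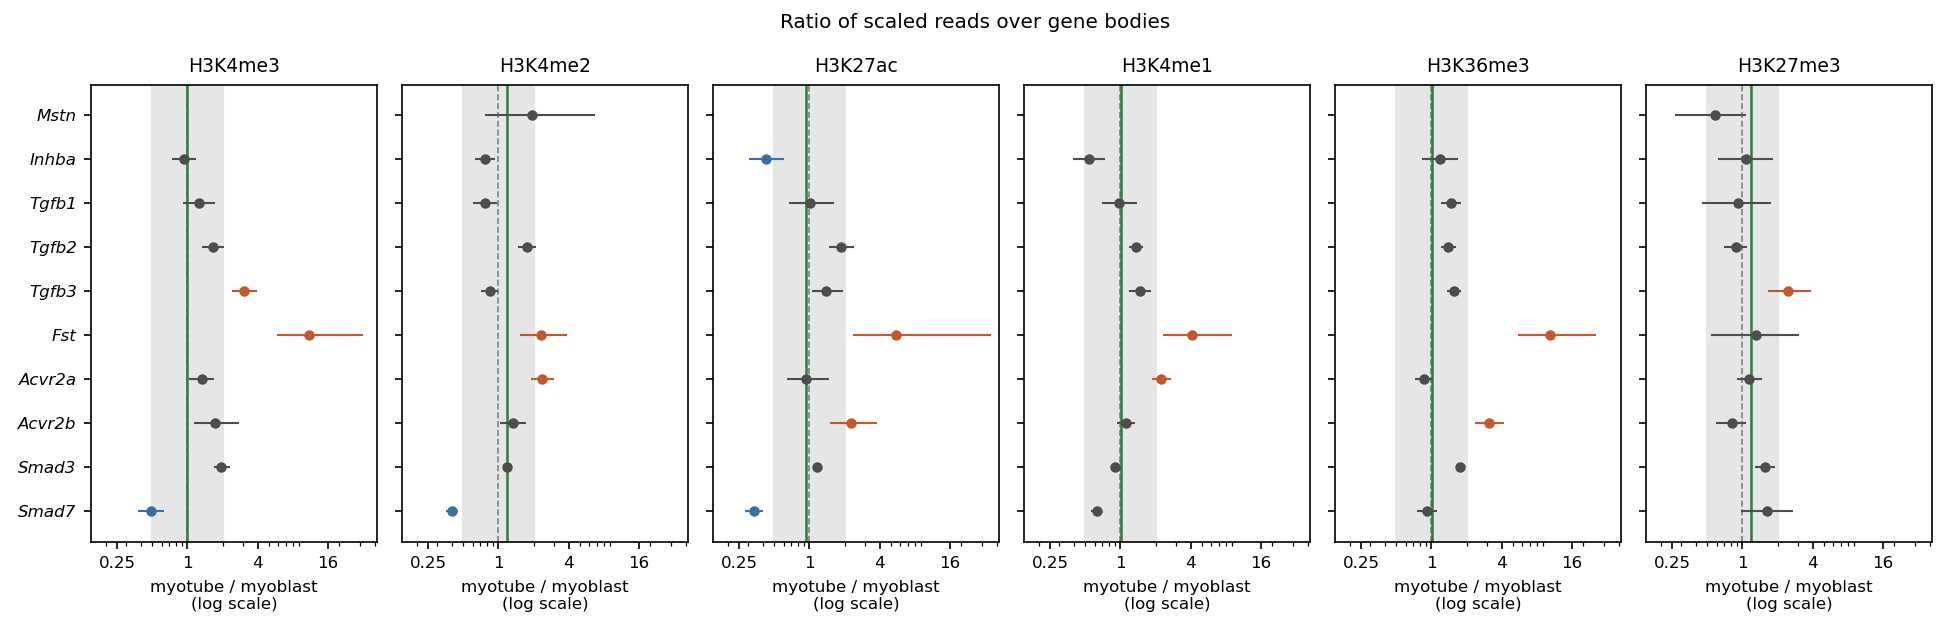
Ratio of scaled reads over gene bodies in myotubes to myoblasts (x axis, log scale), 1 panel per mark, for genes with at least 20 reads, with 95% intervals, 2-fold limits in grey and the median of all gene bodies tested in green. Fst is called higher (orange) in 5 of the 6 panels, and Smad7 lower (blue) in 3.

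Distal regions near the genes were taken from the deposited H3K4me1 peaks of both cell types, joined within 500 bp, over 1 kb from any protein-coding TSS and within 20 kb of a member. There were 39 such regions, and 25 had at least 20 H3K27ac reads. Of these, 10 were higher in myotubes and 3 lower, where 28.4% and 24.2% of the 16696 distal regions tested over the genome were. Their median ratio was 1.34, beside 1.04 over all. The rule for these regions was set after values were seen, and it takes in H3K4me1 peaks of myotubes. The minimum of 20 can be met by the deeper myotube library alone, as at a Tgfb3 region with 0 and 41 reads. An excess in myotubes is thus partly built into the choice, near the members and over the genome, and these counts are a description. A region was given to a gene by position alone, and Mstn had none within this distance.

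The distal regions of Tgfb3 held 5 of the 10 higher ones. Its 7 regions counted 90 H3K27ac reads in myoblasts and 939 in myotubes, a summed ratio of 4.06 (3.30 to 5.15) over 14679 bp. The widest, of 5455 bp at chr12:87375943-87381397, was 8.58-fold in myoblasts and 51.9-fold in myotubes, with 34 and 523 reads (5.89, 4.28 to 8.83). It lies within the neighbouring gene Ttll5, as do 2 others, and the 3 upstream ones lie within 1700019E19Rik. Acvr2b had a region in its body, 6309 bp from the TSS, with 5 and 68 reads (4.52, 2.18 to 17.0).

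Smad7 was the opposite case. A region of 23134 bp, nearly its whole body, counted 264 and 209 reads (0.312, 0.258 to 0.375), and the ratios of the 2 others tested were 0.621 and 0.768. Smad3 had 11 regions, mostly within the gene, of which 2 were higher and 1 lower among the 6 tested, and the sum over them was 562 and 1329 reads (0.929, 0.842 to 1.03). Tgfb2 had 2 higher and 1 lower of 4 tested. Tgfb1 had no call among 3 tested, and its 4 regions summed to 149 and 464 reads (1.22, 1.02 to 1.48). The regions of Inhba, Fst and Acvr2a had too few H3K27ac reads to be tested.

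**Figure D5:**
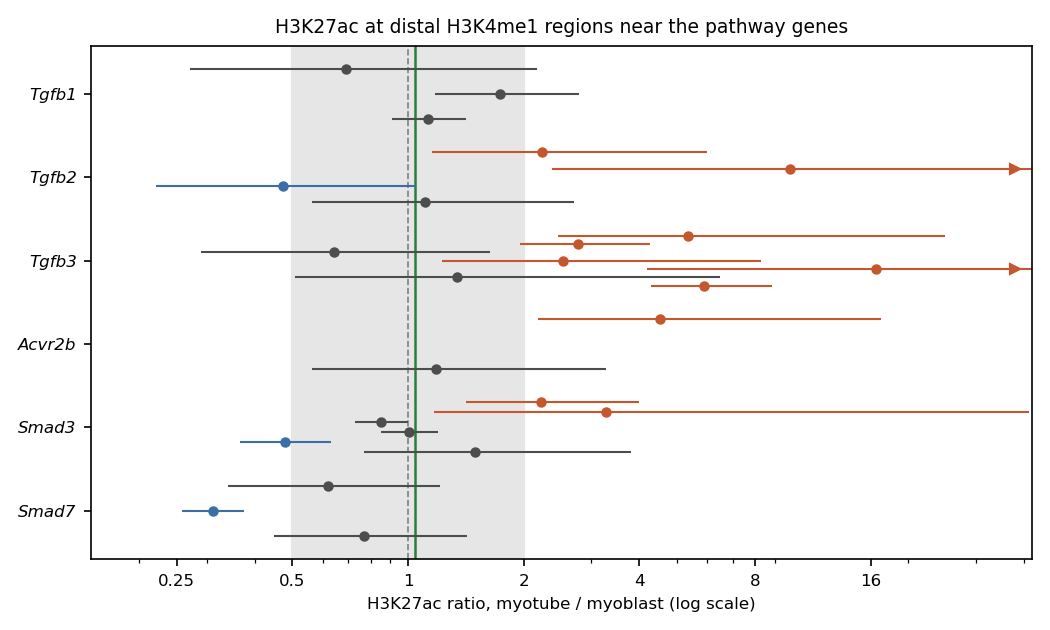
H3K27ac ratio of myotubes to myoblasts (x axis, log scale) at each of the 25 distal H3K4me1 regions tested near the genes, with 95% intervals (arrows where the upper bound is open), 2-fold limits in grey and the median of all distal regions in green. The points of Tgfb3 lie mostly to the right of the grey band, with 5 of 7 called higher, and the Smad7 points lie left of the median.

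2 distal stretches of 300 bases are shown, from the region with the largest H3K27ac ratio and from the Fst peak with the highest score. The first, at chr12:87390668-87390967, is the middle of a Tgfb3 region of 1172 bp. In this region H3K27ac was 0 reads in myoblasts and 41 in myotubes, 5.38-fold higher if 3 reads are taken for myoblasts. The lower bound of its ratio for counting error was 4.18. The second is the middle of the Fst peak 10.9 kb downstream, at chr13:115237885-115238184. Both are on the plus strand of mm9, overlap no annotated exon, and have E-boxes (CANNTG) in capitals.
Tgfb3 distal: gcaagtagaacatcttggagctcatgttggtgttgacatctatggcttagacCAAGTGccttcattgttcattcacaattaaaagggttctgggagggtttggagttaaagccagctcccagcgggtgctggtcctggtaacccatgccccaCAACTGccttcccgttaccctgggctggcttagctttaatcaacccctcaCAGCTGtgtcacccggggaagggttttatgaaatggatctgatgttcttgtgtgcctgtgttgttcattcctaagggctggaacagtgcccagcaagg
Fst distal: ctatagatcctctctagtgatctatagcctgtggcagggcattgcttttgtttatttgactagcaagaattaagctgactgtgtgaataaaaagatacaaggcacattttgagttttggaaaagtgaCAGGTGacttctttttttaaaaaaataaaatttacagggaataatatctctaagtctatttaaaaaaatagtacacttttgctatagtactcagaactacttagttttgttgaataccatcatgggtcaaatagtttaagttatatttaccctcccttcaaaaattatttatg
The Tgfb3 stretch holds 3 E-boxes, of which 1 is CAGCTG, and the Fst stretch holds 1. E-boxes were found in 84.4% and CAGCTG in 22.4% of the middle 300 bases of all distal H3K4me1 regions, and in 83.6% and 23.6% of those of distal myotube H3K27ac peaks, so such matches are common.

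The deposited peak lists placed the 9 marked promoters in H3K4me3 and H3K4me2 peaks in both cell types, and Mstn in none. The myotube H3K27ac list held the same 9 genes. Of the myoblast lists, that of the H3K27ac sample held only Acvr2b, and that of the H3K27me3 sample held 7 (Inhba, Tgfb1, Tgfb2, Tgfb3, Acvr2a, Smad3 and Smad7). Reads of the marks went against these labels. In the list of the H3K27ac sample H3K27ac reads were 0.588-fold and H3K27me3 reads 6.76-fold over the mean, and in that of the H3K27me3 sample they were 36.4-fold and 0.804-fold. Counts of reads do not use the lists. With the 2 lists exchanged, Fst and Acvr2b are the marked promoters without a myoblast H3K27ac peak, and both have one in myotubes.

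Of 57 further genes of the pathway, 42 had enough H3K4me3 reads at the promoter, with 3 called higher and 11 lower. Over all promoters tested, as given above, 3.46% were higher and 7.74% lower for this mark. For H3K27ac 4 of 40 were higher, beside 5.22% of all promoters, and 15 lower, near the 41.5% of all promoters. For H3K4me2 none of 48 was higher and 18 were lower, beside 2.33% and 36.2%. For H3K4me1 2 of 44 were higher and 13 lower, beside 8.79% and 18.7%. For H3K27me3 none of 7 was higher and 4 were lower, beside 2.36% and 20.4%. Body H3K36me3 was higher for 6 and lower for 8 of 49, beside 7.81% and 6.75%. The largest higher ratios were those of Chrd, which encodes the BMP antagonist chordin, with 9 and 44 H3K4me3 reads (3.79, 1.98 to 9.58), 11 and 104 H3K27ac reads (3.44, 1.99 to 7.68) and 74 and 221 body H3K36me3 reads (4.83, 3.73 to 6.43). Next were Acta2, the smooth muscle actin gene, for H3K4me3 (71 and 182 reads, 2.14), Inha, the inhibin alpha subunit gene, for H3K27ac (11 and 93 reads, 3.08), and Inhbb, another activin subunit gene, for body H3K36me3 (16 and 32 reads, 3.17). Acvr1, a type I receptor gene, and the target gene Id1 were highest for H3K4me1 (5 and 18 reads, 3.27, and 14 and 40 reads, 2.82).

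Of the target genes of TGF-beta and BMP signalling, 7 of the 9 tested were lower for promoter H3K27ac, among them Ctgf, Col1a1, Col1a2, Id1, Id2 and Id3, and 1 was higher, beside 41.5% of all promoters lower. For H3K4me3 5 of 9 were lower and 1 higher, beside 7.74% and 3.46% of all promoters. For H3K4me2 4 of 11 were lower, close to the 36.2% of all promoters, and none higher, beside 2.33%. For H3K4me1 4 of 11 were lower and 1 higher, beside 18.7% and 8.79%. Over their bodies, H3K27ac and H3K36me3 were each lower for 4 of 9 and higher for 1, beside 13.1% and 6.75% of all bodies lower. Id3, an inhibitor of helix-loop-helix factors, had 60 body H3K36me3 reads in myoblasts and 0 in myotubes, 12.3-fold lower if 3 reads are taken for myotubes. The upper bound of its ratio for counting error was 0.103. The lowest H3K4me3 ratios were those of Gdf15 (31 and 4 reads, 0.131) and of the proteoglycan gene Dcn (24 and 4 reads, 0.168). Fstl1, the follistatin-like gene, had 43 and 10 H3K27ac reads (0.0983) and Grem1, the gremlin gene, 19 and 4 (0.0983). Gdf15, Dcn, Fstl1 and Grem1 are named for the lowest ratios, so their difference in direction from Fst is part of the choice. Chrd, Inha and Acta2 are named for the highest ratios, so their likeness to Fst in direction is as well. Of the 9 secreted regulators of the further list tested for H3K27ac, 1 was higher and 3 lower, beside 5.22% and 41.5% of all promoters. Their body H3K36me3 was higher for 2 and lower for 3 of 11, beside 7.81% and 6.75% of all bodies. Lowest for H3K4me1 were Tgfbi (37 and 6 reads, 0.190) and Bmp6 (42 and 10 reads, 0.264), and for H3K27me3 Inhbb (27 and 4 reads, 0.250) and the type I receptor gene Acvr1c (19 and 3 reads, 0.280). Smads and their regulators had no H3K4me3 call among 12 tested, where 3.46% of all promoters were higher and 7.74% lower. The markers of dividing cells described above were lower as well, for H3K4me3 and H3K27ac. Of the 4 fibroblast markers, 3 were lower for H3K27ac and 1 for H3K4me3. The 3 include Col1a1, which is also among the target genes counted above. The part of dividing cells or fibroblasts in these values was not tested.

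The genes most like Fst and Mstn were found by the distance over the 12 promoter values of log2(fold + 0.5), leaving out genes within 2 Mb. Nearest to Fst were Stim1 at 2.15, Fam86 at 2.20 and Zkscan5 at 2.23, with no gene closer than 2 and a median distance of 7.04 over all genes. Stim1 held 28 and 61 H3K4me3 reads and 10 and 75 H3K27ac reads, smaller differences than those of Fst. Nearest to Mstn were Fgf14 at 0.881, Fmo4 at 0.977 and Gm9372 at 1.004, and 188 genes lay closer than 2. The pattern of Mstn is thus shared by many promoters near the library mean, which lie close together on this distance by its construction. Neighbours were counted for Fst and Mstn only. Whether other marked promoters have as few as Fst was not tested.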

How the data were processed

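Chromatin was immunoprecipitated from sonicated nuclei and sequenced on the Genome Analyzer. The deposited read files list 1 line per uniquely aligned read in mm9 and were used as counts of 1 per read; per the methods the authors aligned with Mosaik, called peaks with MACS and deposited each peak with its score (50.0 or more). What was merged into each file, the MACS settings and any removal of duplicates are not given in the sources used here; 0.416% to 3.14% of reads shared position and strand with another.

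Reads on chromosomes 1 to 19 and X were extended to 150 bp and their midpoints counted. Genes came from GENCODE M1 on NCBIM37, the same build as mm9. Each gene had 1 promoter, at the TSS with most H3K4me3 reads in both libraries together, and a body from 1 kb inside it to the gene end. Intervals are exact 95% Poisson intervals for counts and conditional binomial intervals for ratios, and were tested on simulated data. As there is 1 library per mark and cell type, no p-value was computed. Members and lists were chosen with earlier results of these data known. Named genes are the members, the 2 further pathway genes with the largest called ratio per mark and direction, and the 3 genes nearest to Mstn and Fst, and 1 gene that this rule names is not reported here; distal regions and Fst peaks were chosen after their values were seen. Alternatives changed 1 choice at a time: window, TSS, extension, duplicates, background, scaling, added reads, minimum count, limit, gene extent and peak rule. Python 3.11.15, numpy, pandas, scipy and matplotlib were used.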

Additional observations from a re-analysis of the deposited data

How the results depend on the processing

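No paired analysis was possible because there is 1 library per mark and cell type, and no library could be left out. Extending reads to 250 bp or not at all and keeping 1 read per position and strand moved no count or median beyond its limits. A minimum of 10 reads moved none either. These limits are not given here, and single calls did change within them. With a minimum of 10 reads, promoter H3K27me3 of Acvr2b becomes a lower call (16 and 3 reads, 0.329). For distal H3K27ac, regions of Smad3 become higher (1 and 10 reads, 2.16, and 1 and 12 reads, 2.56). A distal region of Tgfb2 becomes lower (5 and 5 reads, 0.393). Scaling mattered most. By marked promoters or their bodies, 6 promoter pairs of gene and mark, H3K36me3 not counted, were higher and 0 lower (3 and 6 by total reads), the median promoter ratio was 0.916 for H3K4me2 and 1.74 for H3K27ac, the median body ratio of H3K27me3 was 0.776, and 0 distal regions were lower. By windows outside peaks, 11 promoter pairs were lower and the median promoter ratio was 0.367 for H3K4me2 and 0.515 for H3K4me1. With a limit of 1.5, 5 promoter pairs were higher and 15 lower, 21 body pairs higher and 7 lower, and 5 distal regions lower. With 5 added reads 6 distal regions were higher, and within 5 kb of the gene also 6. Over the whole annotated gene 2 body pairs were lower. At the most upstream TSS the H3K27ac ratio of Smad7 turned to 1.10, the only called ratio to change direction. Over the 200 kb around each gene the median promoter fold of H3K4me2 was 14.5 in myoblasts and 9.96 in myotubes (43.2 and 22.0 over the library mean) and that of H3K36me3 in myoblasts 0.478, and within 500 bp of the TSS the median of H3K27me3 in myotubes was 0. With a peak score of at least 100, 1 member had an H3K4me1 peak in myoblasts and 0 in myotubes, and 0 an H3K36me3 peak in myotubes. For peaks over the TSS itself these counts were 1, 0 and 0, and 0 for H3K27ac in myoblasts. With the 2 myoblast lists exchanged, 7 members had an H3K27ac peak and 1 an H3K27me3 peak. Beyond the construction of each alternative, the cause was not tested. Depth limits calls at promoters: a mean window of H3K27ac in myoblasts held 1.45 reads.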

Other observations

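Some further H3K27ac at the pathway genes lay outside the promoters and distal regions of the comparisons, and is given as values with no explanation. Smad3 has 3 annotated start sites inside the gene besides its main one, and none had an H3K4me3 ratio whose interval excluded 1. At the one closest to the main promoter, H3K27ac counted 0 reads in myoblasts and 32 in myotubes within 1 kb, with 2 and 8 H3K4me3 reads, whereas the inner ones held 10 and 25 and 19 and 34 H3K27ac reads (ratios 0.930, 0.456 to 2.29, and 0.688, 0.390 to 1.31).

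Upstream of Tgfb2, a myotube H3K27ac peak of 633 bp held 0 reads in myoblasts and 23 in myotubes, with 3 and 15 H3K4me1 reads. In the Inhba gene, a myotube H3K27ac peak of 960 bp held 27 and 36 reads, a ratio of 0.520 (0.310 to 0.898), beside 0.393 at the promoter. It also held 36 and 55 H3K4me3 reads, 44.4-fold over the mean in myotubes, and 5 and 3 H3K4me1 reads. The peak lies in the body of Inhba, so its reads are part of the 68 and 74 H3K27ac reads counted there. These peaks were chosen through the myotube library after their values were seen, so no count of them is read as a result.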
